A study of Homo sapiens with 2 samples.

Results

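Of the 6183 NeuroD1 peaks called in IMR-32 cells, 572 lay more than 50 kb from the body of every protein-coding gene of RefSeq. These 572 also lay outside every long non-coding RNA (lncRNA) gene. They made up 9.25% of the list (95% exact Clopper-Pearson interval 8.54% to 10%) and are called far peaks here. The choice used positions alone, and no measured value entered it. In all, 809 peaks passed the distance, and 237 of them were left out because they overlapped a lncRNA gene. The last peak inside the limit lay 50016 bp from FH with a fold enrichment of 7.19, and the first one outside lay 49903 bp from LOC107983958 with a fold enrichment of 9.95. Of the other peaks, 3763 overlapped a protein-coding gene, 805 lay within 3 kb of one, and 806 lay between 3 and 50 kb away.

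The cells were IMR-32, an established neuroblastoma line with amplified MYCN, unmodified in genotype and with no treatment named. The values come from the peaks of 1 ChIP library made with a NeuroD1 antibody, and its input library (the same kind of chromatin, not pulled down) was not analysed here. The sample labels name the NeuroD1 antibody, whereas the supplementary methods describe the ChIP-seq with an antibody to acetylated H3K27, and the list was used as it is labelled. With 1 library there was no replicate, so no test between samples was possible. Intervals of reads and shares cover counting error only, and intervals of medians cover the spread between peaks, which are not replicates. The total number of reads is unknown.

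NeuroD1 is a basic helix-loop-helix transcription factor that pairs with E-proteins and binds the E-box, a short element written CANNTG. It drives neuronal differentiation and can open closed chromatin. Factors of this class often bind enhancers, which act on promoters over long distances, so that the gene nearest to a distal peak is not always the gene it acts on. Distances below are therefore positions, and no target gene was tested.

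Sequence was available for stretches around transcription starts in RefSeq GRCh38.p14, and the submitters' processing notes give hg38, the same build, for the peaks. The 2 stretches below were chosen because they hold the summits of far peaks. Each lies at the start of a lncRNA gene that the peak did not enter. The strand is the + strand, letters run 5′ to 3′, and capitals mark an E-box.
LINC01626 start, chr6:71420777-71420998: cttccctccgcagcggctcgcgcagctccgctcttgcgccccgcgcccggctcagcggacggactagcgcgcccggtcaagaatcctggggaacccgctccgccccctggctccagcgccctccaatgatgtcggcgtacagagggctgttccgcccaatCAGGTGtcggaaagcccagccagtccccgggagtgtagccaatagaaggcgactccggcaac
LINC02901 start, chr6:158869564-158869687: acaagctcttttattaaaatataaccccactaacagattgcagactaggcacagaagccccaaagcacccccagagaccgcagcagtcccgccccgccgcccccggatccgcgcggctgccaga

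The first stretch, of 222 bases, is all but 1 base of a far peak of 223 bp that sat between the opposed starts of LINC01626 and LINC00472, 29 bp from the nearer gene. OGFRL1, the nearest protein-coding gene, was 112 kb away. The peak had a fold enrichment of 7.19 and 21 reads at its summit. Its single CANNTG match, CAGGTG at chr6:71420937-71420942, began 44 bp from the summit, and 68.9% of its bases were G or C. Of the first 222 bases of all 35116 RefSeq start windows, 58.1% held a CANNTG, a motif that reads the same on both strands. The second stretch covers 124 bases of a 193-bp peak, 50.1 kb from EZR, with a fold enrichment of 6.21 and 18 reads. CANNTG was not found in these letters, against 39.2% of windows of that length. A match describes the letters and does not show that the factor binds there.

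Far peaks were about as strong as the rest. Fold enrichment is the ChIP signal at the summit divided by the local background, with 1 added to each. Its median was 6.87 over the 572 far peaks (95% interval 6.75 to 7.19), and 6.79 over the other 5611 peaks. The middle 50% of far peaks ran from 5.79 to 8.68, and the whole range from 1.76 to 42.4. A fold enrichment of at least 10 was reached by 83 far peaks, or 14.5% (11.7% to 17.7%), against 15.3% of all peaks. The strongest 5% of far peaks began at 12.6, against 14.0 for all other peaks, 12.5 for those within 3 kb of a protein-coding gene and 11 for the distant ones in lncRNA genes. The median −log10 q, the significance that the peak caller gave each peak, was 7.67 in far peaks and 7.67 in the rest.

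**Figure D1:**
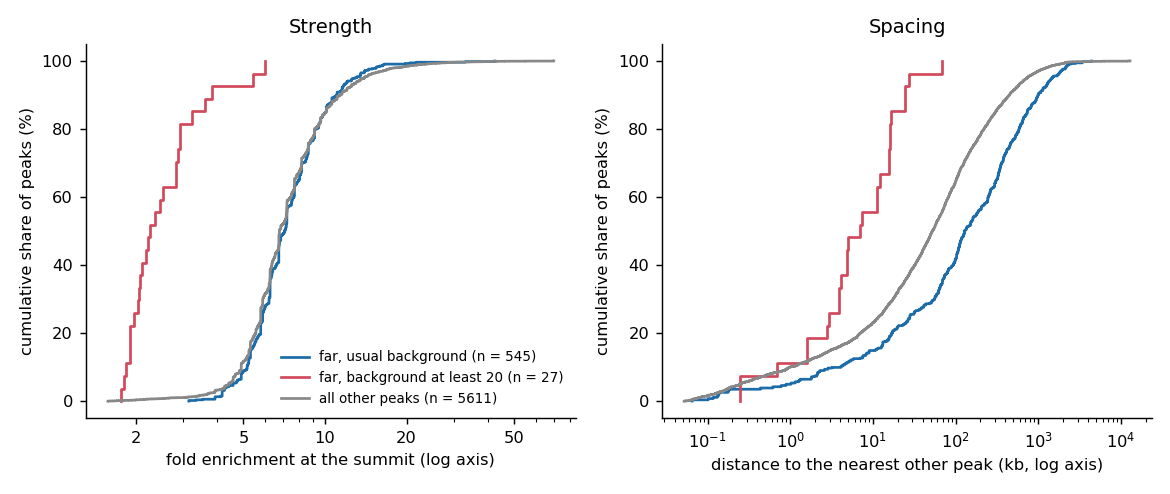
Cumulative share of peaks (percent) against fold enrichment at the summit (left, log axis) and against the distance in kb to the nearest other peak (right, log axis), for 545 far peaks of usual background, 27 far peaks of high background and 5611 other peaks. The blue and grey lines nearly coincide for strength, whereas the blue line lies to the right of the grey one for spacing, with medians of 129 and 52.5 kb.

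The strongest far peak lay on chromosome 17 at 30707912 to 30709136, 73.5 kb from CRLF3, a cytokine receptor-like gene. It had a fold enrichment of 42.4 and ranked 9 in the whole list. Its summit held 87 reads (69.7 to 107, by exact Poisson limits) over a background of 1.04. With 1225 bp it was also the widest far peak. It lay 472 bp from SUZ12P1, a pseudogene copied from the Polycomb gene SUZ12, and reads shared with the parent gene cannot be told apart in a peak list. The next strongest, on chromosome 12 at 14257559 to 14258130, had a fold enrichment of 33.0 and 100 reads (81.4 to 122). It lay 108 kb upstream of ATF7IP, which partners the histone methyltransferase SETDB1. A second peak before ATF7IP, at 165 kb, had a fold enrichment of 20.6 and 42 reads. The ATF7IP stretch thus held 2 of the 4 strongest far peaks, 56.6 kb apart.

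KIRREL3, which encodes an adhesion molecule of neurons, had a far peak 103 kb upstream with a fold enrichment of 21.7. Between IYD and PLEKHG1 on chromosome 6, a pair of far peaks stood 117 bp apart, with fold enrichments of 19.8 and 16.5. IYD encodes an iodide-salvaging enzyme of the thyroid, and the pair was almost as far from one gene as from the other. The gap in this pair is shorter than the sheared DNA fragments described in the paper's methods. Whether the pair marks separate sites was not tested. The remaining peaks among the 10 strongest lay nearest to SETD4 (fold enrichment 16.4), the BAF complex gene ARID1B (16.3), the RNA-binding ubiquitin ligase gene MEX3C (15.9) and FHL5 (15.6). By −log10 q the 10 leading far peaks also included one nearest to SCARB1, which encodes the receptor of high-density lipoprotein, whose fold enrichment was 14.4 at a −log10 q of 37.9. They included 4 peaks near MYCN, MEIS1 and ETAA1 as well, whose fold enrichments were far lower.

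Far peaks were slightly narrower than others. The median width was 207.5 bp (198 to 216) in far peaks and 221 bp in the other peaks. It was 212 bp both in the peaks within 3 kb of a protein-coding gene (205 to 220) and in the distant peaks in lncRNA genes (201 to 232), whose intervals overlap that of far peaks. The middle 50% of far peaks measured 166 to 274 bp. At least 450 bp was reached by 31 far peaks, 5.42% of them (3.71% to 7.60%), against 5.92% of all peaks.

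A group of far peaks differed from the rest in the local background, solved for each summit from the deposited fold enrichment and −log10 p. It is the number of reads the peak caller took as chance level at that place. In 545 far peaks it lay between 1.04 and 5 reads. In the other 27 it lay between 38.0 and 77.8 reads, and no peak of the list lay between 7 and 33.4. These 27 were 4.72% of far peaks (3.13% to 6.79%), against 1.81% of all peaks. The share was not particular to far peaks, as it was 7.17% (4.23% to 11.2%) in the 237 peaks at the same distance that lay in lncRNA genes. Read the other way, 24.1% of the 112 peaks of high background were far peaks (16.5% to 33.1%), compared with 8.98% of the remaining peaks.

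**Figure D2:**
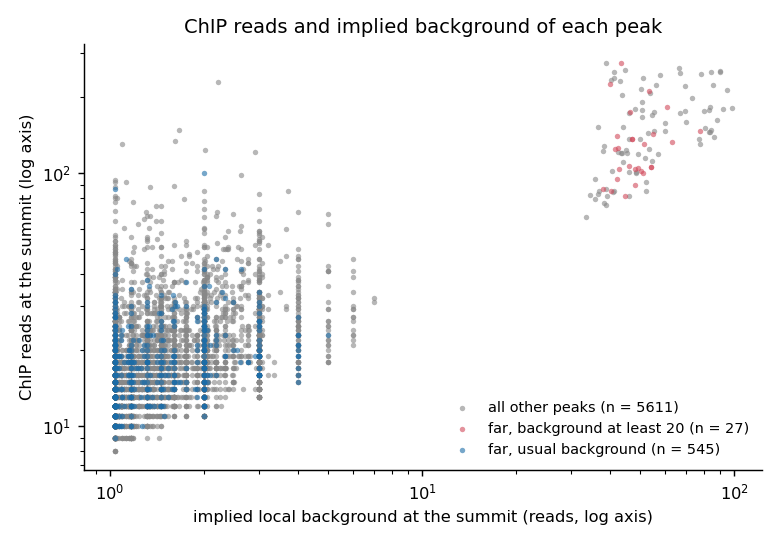
ChIP reads at the summit against the implied local background in reads, 1 point per peak, both axes logarithmic. A gap between 7 and 33.4 background reads parts the list, and 27 far peaks stand on the high side with 81 to 272 reads.

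All 27 lay on chromosome 2, as did all 112 peaks of high background. Between MEIS1 and ETAA1 there were 13, between DDX1 and MYCN 10, and between LRATD1 and NBAS 1. The remaining 3 had ASB3 as their nearest gene. They had many reads and low ratios. Their median was 125 reads (104 to 141) with a fold enrichment of 2.26 (2.04 to 2.86), whereas the usual far peaks had 17 reads and a fold enrichment of 7.11 (6.77 to 7.23). In 22 of the 27, the fold enrichment was below 3.14, the lowest value of any other far peak. Among the 100 peaks with the most reads in the list, 23 were far peaks and 22 of these had a high background. Among the 100 with the highest fold enrichment, 5 were far peaks, none of them with a high background. Copy number was not measured here, and more DNA copies and more binding per copy cannot be told apart in the numbers of reads.

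MYCN encodes the transcription factor N-Myc, a driver of neuroblastoma, and DDX1 is an RNA helicase gene beside it. The 309 kb between them held 14 peaks, of which 10 were far peaks. The leading one, at chr2:15889588-15890458, stood 50.1 kb upstream of MYCN and so just inside the limit. It had 272 reads (241 to 306), the highest number in the list, which 1 peak in a lncRNA gene between MEIS1 and ETAA1 shared. Over a background of 43.4 reads, the leading peak before MYCN had a fold enrichment of 6.02, rank 4236 by fold enrichment, but its −log10 q was 108.73. A neighbour 2.98 kb away had 174 reads and a fold enrichment of 3.62. The other 8 were weaker, with 90 to 143 reads and fold enrichments of 1.81 to 2.86, and their distances from the nearer gene ran from 80.7 to 142.6 kb. MYCN itself had 3 peaks in the gene or within 3 kb, and DDX1 had 2.

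The 823 kb between MEIS1 and ETAA1 held 36 peaks, and 13 were far peaks. Both counts were the highest among the 37 intervals with at least 3 far peaks. MEIS1 encodes a homeobox factor of the adrenergic neuroblastoma program, and ETAA1 an activator of the checkpoint kinase ATR. The peak at chr2:67318906-67319601, 77.7 kb upstream of ETAA1, had 226 reads (197 to 257) over a background of 40 reads and a fold enrichment of 5.43. The peak at chr2:66733367-66733714, 159 kb downstream of MEIS1, had 211 reads (183 to 241) and a fold enrichment of 3.84. The other 11 had 85 to 183 reads and fold enrichments of 1.90 to 3.24. Beyond ETAA1, the far peaks had a usual background. The first of them, 105 kb from the gene, had a background of 1.75 and 14 reads, with a fold enrichment of 5.35, and another at 290 kb had a background of 2.77 and 18 reads.

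**Figure D3:**
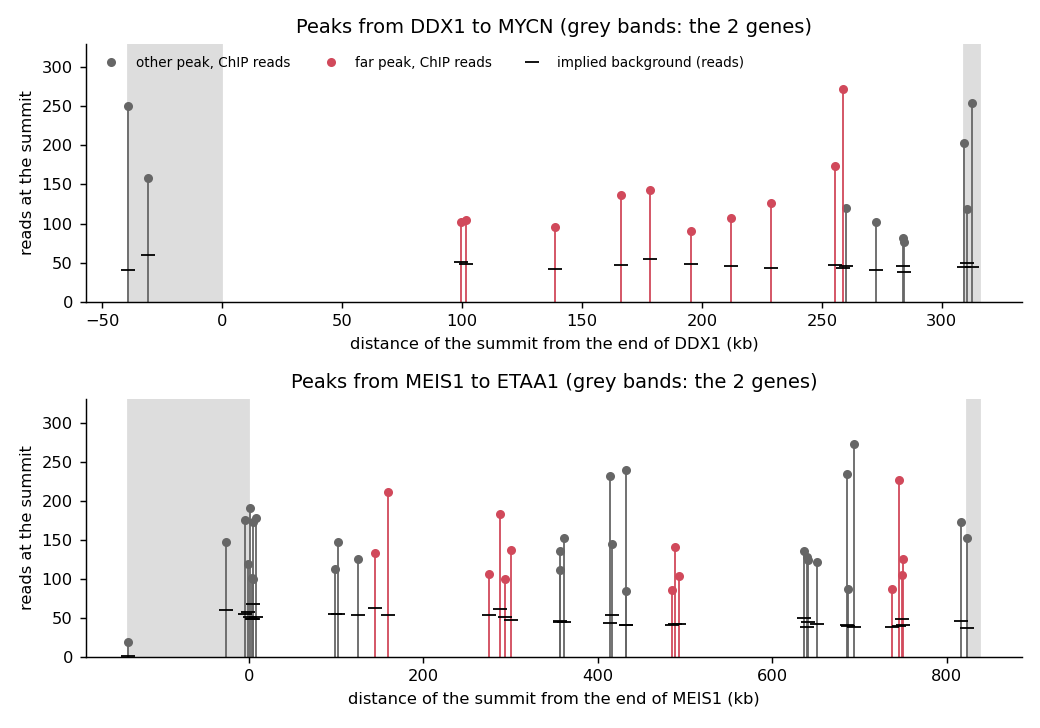
Reads at the summit of each peak (height of the line and point) along the intervals from DDX1 to MYCN and from MEIS1 to ETAA1, by distance in kb from the end of the first gene, with grey bands for the genes and black ticks for the implied background. The 10 far peaks above and the 13 below stand over a background of 38.0 to 63.0 reads. In each panel 1 peak has 272 reads. The upper one is a far peak 50.1 kb from MYCN, and the lower one is not a far peak.

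Far peaks were spaced more widely than others. The nearest other NeuroD1 peak, far or not, was a median of 118 kb away (104 to 151 kb), compared with 52.5 kb for the other peaks. Another peak stood within 10 kb of 96 far peaks, 16.8% (13.8% to 20.1%), against 22.4% of all peaks. Within 100 kb it was 254 far peaks, 44.4% (40.3% to 48.6%), against 62.7% of all peaks. Without the peaks of high background these shares were 14.9% and 41.7%. The distant peaks in lncRNA genes partly shared the wide spacing. Their median was 79.3 kb (63.3 to 115 kb), and 52.7% (46.2% to 59.2%) had another peak within 100 kb. Both intervals overlap those of far peaks. Without high background the medians were 101 kb (72.3 to 140 kb) in these peaks and 129 kb (112 to 166 kb) in far peaks. No peak within 1 Mb was found for 55 far peaks, 9.62%, compared with 3.61% of all peaks. For 273 far peaks, or 47.7%, the nearest peak was itself a far peak. The rule bears on spacing in part, since places without genes have fewer peaks beside them, and how much it does was not tested.

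Most far peaks were single. With a gap of at most 10 kb between neighbours, 481 stood alone among far peaks and 91 fell into 42 runs, 36 of them pairs. Some gaps, down to 65 bp, were shorter than the sheared DNA fragments of the paper's methods. Such neighbours may be 1 bound region, so these are counts of called peaks and not of separate sites. The longest run held 4 peaks over 12.3 kb before ETAA1, and 2 of the other 5 runs of 3 also lay between MEIS1 and ETAA1, all with high background. The 3 runs of 3 with usual background lay before RPL38, a ribosomal protein gene, before FRG2C and between TSPAN17, a tetraspanin gene, and UNC5A, a netrin receptor gene. The RPL38 run was the strongest of them, with fold enrichments of 12.6, 10.5 and 11.6 within 4.49 kb. The FRG2C run had 7.71, 10.1 and 8.68 within 4.97 kb. In the third run, 1 peak with 6.75 was nearest to TSPAN17 and 2 with 6.27 and 9.16 were nearest to UNC5A, all within 6.55 kb.

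Among chromosomes, chromosome 2 held the most far peaks, 96 of its 561 peaks, or 17.1% (14.1% to 20.5%). Without the peaks of high background it still held 69, which was 15.4% of its remaining peaks. Chromosome 6 followed with 45 and chromosome 1 with 43. The share was as high on chromosome 18, at 14 of 82 peaks (17.1%, 9.66% to 27.0%). It was low on chromosomes rich in genes, with 25 of 584 peaks on chromosome 17 (4.28%) and 3 of 364 on chromosome 19 (0.824%, 0.170% to 2.39%).

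The room for far peaks differed too. Stretches that meet the rule covered 916 Mb, 30.2% of the 3029 Mb between the first and last RefSeq gene of each chromosome, assembly gaps included. They held 0.624 far peaks per Mb, whereas the rest of the genome held 2.66 peaks per Mb, 4.25 times as many. Assembly gaps hold no genes and so count mainly toward the far stretches. They lower the far density and raise this ratio by an amount that was not measured. On chromosome 17 the far stretches were short in sum (15.0 Mb) and dense, at 1.67 far peaks per Mb, and that chromosome also had the highest density of other peaks, 8.19 per Mb. Chromosome 2 had 1.41 per Mb, and 1.01 without the peaks of high background. Chromosome 6 had 0.942. The lowest density was 0.0655 per Mb on the X chromosome, which also had the lowest density of other peaks, at 0.242 per Mb.

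The median far peak was 153 kb from its nearest protein-coding gene (139 to 169 kb), and the middle 50% lay between 87.4 and 336 kb. Over 500 kb there were 87 (15.2%), and over 1 Mb 18. The farthest lay 2005 kb downstream of NCAM2 on chromosome 21 with a fold enrichment of 4.25, followed by one 1879 kb downstream of CTNNA2 (9.81) and one 1811 kb from PCDH10 (8.20). These genes encode a neural cell adhesion molecule, an alpha-catenin of neurons and a protocadherin. Median strength showed little order with distance, while the highest values were lower farther out, in groups that also held fewer peaks. The median fold enrichment was 6.77 in the 180 far peaks up to 100 kb from a gene, 7.23 in the 161 up to 200 kb, 6.75 in the 144 up to 500 kb, 6.78 in the 69 up to 1 Mb and 7.01 in the 18 beyond, with intervals that overlapped. The highest fold enrichment in these groups was 42.4, 33.0, 15.9, 14.9 and 11.6 in the same order, and the share of at least 10 went from 15.6% in the first to 11.1% in the last. Spacing rose, from a median of 72.4 kb to the nearest peak in the first of these groups to 451 kb in the 500 kb to 1 Mb group. Where the strand of the nearest gene was given, 245 far peaks lay upstream of it and 208 downstream, a share of 54.1% upstream (49.4% to 58.7%).

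The 572 far peaks had 418 nearest protein-coding genes, 2.09% of the 20037 in RefSeq. Of these genes, 320 were nearest to 1 far peak, 70 to 2 and 28 to at least 3. A peak also stood in the gene or within 3 kb of it for 148 of the 418, 35.4% (30.8% to 40.2%), against 21.4% of all protein-coding genes. Longer genes have more room for a peak, and gene length was not allowed for in this comparison. ETAA1 led with 9 far peaks, followed by MYCN and TLE3 with 7 each, MEIS1 and RPL38 with 6, and SOX11 and TAFA5 with 5. API5, CMPK2, PLA2G4A and PTPRD were each nearest to 4. With 3 each there were ASB3, AUTS2, DDX1, FLRT2, FRG2C, FRK, GADD45G, GLI3, GRIK2, HAAO, KCNU1, KLHL29, LRRTM4, MAP3K7, NMNAT3, SQOR and UACA.

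Seen by interval, the far peaks fell between 379 pairs of neighbouring protein-coding genes, and 269 intervals held 1. At least 3 were found in 37 intervals, which held 157 far peaks. Beyond chromosome 2, the most were 9 between TLE3, a Groucho corepressor gene, and UACA on chromosome 15, in 557 kb. Their fold enrichments ran from 4.71 to 11.4, with 11 to 29 reads. The strongest of the 9 stood nearer to UACA, at 269 kb, and 6 of them stood nearer to TLE3. On chromosome 17, 7 lay between the adhesion gene SDK2 and RPL38, and 3 of them formed the run described above. On chromosome 22, 6 lay between TAFA5, which encodes a secreted chemokine-like protein, and BRD1, with fold enrichments of 3.92 to 9.17.

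SOX11, an SRY-box factor of immature neurons and of adrenergic neuroblastoma, had far peaks on both sides. On one side 3 stood at 212, 282 and 377 kb, with fold enrichments of 9.57, 12.1 and 8.28. On the side of CMPK2, a mitochondrial nucleotide kinase gene, 6 stood in 1139 kb, and the nearest to SOX11 was 380 kb away with a fold enrichment of 9.14. SOX11 lies on chromosome 2, but all 9 of these peaks had a background of 1.15 to 2 reads. Before API5, an apoptosis inhibitor gene, 4 far peaks included one of 14.5 with 29 reads. AUTS2 had 3 at 900 to 1110 kb upstream, with fold enrichments of 11.6, 8.15 and 5.56, and had 7 peaks at the gene itself.

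Lists of regulators were read against the nearest genes. The lists were chosen with earlier results of these data known, so their shares are descriptions and not tests. Of 23 adrenergic neuroblastoma regulators, 4 were nearest to a far peak (HAND2, MEIS1, MYCN and SOX11), or 17.4%, against 2.09% of protein-coding genes. A gene beside a long stretch without protein-coding genes has more room for far peaks. SOX11, for one, borders intervals of 1139 and 1578 kb. No allowance was made for this in any of the lists. The 4 genes account for 19 far peaks, 13 of which had a high background. These 13 were all 7 far peaks of MYCN and all 6 of MEIS1. Without them, HAND2 and SOX11 alone remained nearest to a far peak. A peak at the gene was found for 12 of the 23, which 21.4% of protein-coding genes had. HAND2, a bHLH factor of sympathetic neurons, had 1 far peak, 118 kb upstream, with 24 reads (15.4 to 35.7) and a fold enrichment of 6.13. On either side of a far peak stood 8 of the 23, against 3.61% of protein-coding genes.

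Of 17 regulators of the mesenchymal state, 2 were nearest to a far peak, or 11.8%, against 2.09% of protein-coding genes. On either side of a far peak stood 3 of the 17, against 3.61%, and 2 had a peak at the gene, against 21.4%. The homeobox gene MEOX2 had 1 far peak, 153 kb upstream, with a fold enrichment of 10.4 and 25 reads (16.2 to 36.9). SOX9 had 2, at 253 and 682 kb, with 4.17 and 5.40. Of 42 neurogenic and neuronal factors, EBF1 alone was nearest to a far peak, with a fold enrichment of 5.79 and 11 reads (5.49 to 19.7) at 378 kb. This share of 2.38% was close to the 2.09% of all protein-coding genes. A peak at the gene was found for 10 of the 42, against 21.4% of protein-coding genes. The adhesion and guidance list was chosen for genes in long stretches without other genes, so its count of nearest genes, 9 of 43, is no comparison with all genes. They were CDH2, CDH9, EFNA5, FLRT2, LRRTM4, PCDH10, PCDH17, PCDH9 and ROBO1. Their 14 far peaks all had a usual background, with a median fold enrichment of 6.30, and the strongest, at 8.68, lay 890 kb downstream of PCDH17.

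Far from protein-coding genes did not mean far from every gene. Counting all gene types, the nearest gene was a median of 27.0 kb away. Within 3 kb of any gene stood 54 far peaks, and that gene was a lncRNA for 33, a pseudogene for 17, a microRNA for 3 and a tRNA for 1. Transcribed pseudogenes were overlapped by 5 far peaks. The strongest of these, with a fold enrichment of 13.1 and 28 reads, lay in OACYLP, 63.3 kb from ZNF532, and the others lay in EMBP1, EGFEM1P, FRG1HP and the readthrough ARHGAP27P1-BPTFP1-KPNA2P3. Within 5 kb of a microRNA hairpin there were 4, at MIR492 (1178 bp), MIR147A (2217 bp), MIR1297 (2622 bp) and MIR6080 (3530 bp), and the one at MIR147A had the highest fold enrichment of the 4, at 10.1.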

How the data were processed

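NeuroD1 ChIP-seq of IMR-32 cells gave 1 peak list. Per the labels, the authors aligned reads with BWA 0.7.17 to hg38 and called peaks with MACS2 2.2.7, whereas the peak names say macs3. Neither the control nor the q threshold is given in the sources used here. The deposited fold enrichment is a ratio at the summit, the deposited −log10 values are those of p and q, and the deposited score is a whole number cut from −log10 q. A last deposited column, fold enrichment divided by width, was not used.

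Reads and background at each summit were solved from the fold enrichment and −log10 p, at a weight of 0.98 per ChIP read inferred from the values. The solved reads were whole within 0.002 for 100% of 1420 distinct pairs of values. On simulated data, 100% of 287 peaks gave back their reads. The simulation used the same formula, weight and solved values, so it checks the solving alone. It cannot show that the formula or the weight matches the deposited values. A background of at least 20 reads was called high.

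Distances ran from the peak interval to gene bodies of RefSeq GRCh38.p14 (59679 genes, 20037 protein-coding, 18303 lncRNA). Strand and sequence came from its table of start windows. Intervals are exact Clopper-Pearson or Poisson intervals at 95%, and for medians binomial intervals over ranked peaks. Genes named were the nearest of the 10 far peaks highest by fold enrichment or by −log10 q, of the 3 farthest, those nearest to at least 3 far peaks, and list members. Sequence examples, runs and intervals, and neighbours of other gene types were chosen after their values were seen. The far peaks and the lists were chosen with earlier results of these data known. Alternatives were other distances, summits in place of intervals, lncRNA genes ignored, stricter peaks, no high background, no LOC genes and no chromosome 2. Results for some genes are not reported here. A planned count of summits near an E-box was not run, because no genome sequence was used. Scripts ran in Python 3.11.15 with scipy 1.17.1, pandas 2.3.3, matplotlib 3.10.9 and numpy 2.4.6.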

Additional observations from a re-analysis of the deposited data

How the results depend on the processing

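Of 73 alternative values of 8 results, 60 stayed within the 95% interval of the value reported, or for counts within 1.5 times of it, and 13 moved beyond. The number of far peaks ranged from 392 (over 100 kb) to 809 (lncRNA genes ignored). The median distance to the nearest peak was 103 kb at a limit of 25 kb, 190 kb at 100 kb, 173 kb at fold enrichments of 5 or more, 151 kb without chromosome 2 and 669 kb when the neighbour had to be a far peak. The median distance to the nearest protein-coding gene was 105 kb at 25 kb and 256 kb at 100 kb, as the limit itself sets. Among peaks whose −log10 q reached 5, the median fold enrichment was 7.28, the median −log10 q 9.44 and the median width 222 bp. At fold enrichments of 5 or more, the median fold enrichment was 7.23 and the share of high background 0.401%. A cut on −log10 q or on fold enrichment cannot lower the median of that same value. Far peaks of high background had a median fold enrichment of 2.26, so the cut on fold enrichment removes most of them. Without chromosome 2 the share of high background was 0%, since all such peaks lay there. Leaving out chromosome 2 and LOC genes was chosen after seeing the data. The alternatives of the E-box share were not run. No paired analysis was possible because the list comes from a single library. Far peaks of usual background had a median of 17 reads (from 9 to 100), so at this depth the order of the weaker ones by strength is uncertain.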
